A study of Rattus norvegicus with 32 samples.

Results

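The aryl hydrocarbon receptor (AhR) genes and the Cyp1 family were measured by RNA-seq in rat liver sinusoidal endothelial cells (LSECs), the fenestrated cells that line the hepatic sinusoid. Of the 32623 genes in the files, 7 were taken by symbol and all 7 were found: Ahr, Arnt, Ahrr, Tiparp, Cyp1a1, Cyp1a2 and Cyp1b1. Cyp1b1 was chosen by its rise in the rats given carbon tetrachloride (CCl4), so its values in that model are given as a description with no test, and counts of genes called in that model cover the other 6 members.

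The study asked how LSECs change as chronic liver disease progresses. In the CCl4 experiment, the labels name Wistar Han rats in all groups: 6 healthy libraries from untreated rats, 5 acute libraries after 2 weeks of CCl4, 5 fibrosis libraries after 6 weeks and 6 cirrhosis libraries, for which the design gives 12 to 14 weeks of CCl4. According to the methods, the rats were male, CCl4 was inhaled, and the drinking water held phenobarbital in this model; whether the untreated rats drank it is not stated. In the thioacetamide (TAA) experiment, 5 libraries carry the label control and 5 the label TAA control rat. That wording does not settle which of the groups received TAA, so every difference is given as labelled TAA control minus labelled control, with no direction of treatment. The labels name Wistar Han rats here too, whereas the methods name Sprague-Dawley males. The methods also give TAA into the peritoneum for 12 weeks and saline for the controls. For both toxicants, they place LSEC isolation days after the last dose, to lessen acute inflammatory gene responses. The cells were separated on an iodixanol density gradient and not by an antibody, so other liver cells can be in the preparation. Tests were run only within an experiment, and levels set side by side across the 2 experiments are descriptions.

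AhR is a ligand-activated transcription factor of the bHLH-PAS family. It is held in the cytosol by chaperones, moves to the nucleus when a ligand binds, pairs with Arnt and binds DNA at sites with the core letters GCGTG. Its best-known targets are Cyp1a1, Cyp1a2 and Cyp1b1, which oxidise aromatic compounds and hormones, and Ahrr and Tiparp, which both restrain the receptor. Cyp1a2 is also a constitutive gene of hepatocytes.

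Promoters are shown for the 2 genes that the results turn on and that hold several cores, Ahrr and Cyp1b1, for Tiparp with a single core, and for Cyp1a2, which moved opposite to the other members. Each is the 250 bases before the RefSeq start of the gene in assembly GRCr8, 5′ to 3′ on the gene's own strand: Ahrr at chr1:30821969-30822218 (+ strand), Cyp1b1 at chr6:21094315-21094564 (+ strand), Tiparp at chr2:152063519-152063768 (+ strand) and Cyp1a2 at chr8:66978150-66978399 (- strand). Capitals mark GCGTG and, for the opposite strand, CACGC.
Ahrr: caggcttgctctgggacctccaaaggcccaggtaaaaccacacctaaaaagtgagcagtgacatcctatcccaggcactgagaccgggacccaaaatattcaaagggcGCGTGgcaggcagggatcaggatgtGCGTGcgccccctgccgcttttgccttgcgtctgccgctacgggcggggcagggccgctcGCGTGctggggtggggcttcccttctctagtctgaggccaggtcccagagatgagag
Cyp1b1: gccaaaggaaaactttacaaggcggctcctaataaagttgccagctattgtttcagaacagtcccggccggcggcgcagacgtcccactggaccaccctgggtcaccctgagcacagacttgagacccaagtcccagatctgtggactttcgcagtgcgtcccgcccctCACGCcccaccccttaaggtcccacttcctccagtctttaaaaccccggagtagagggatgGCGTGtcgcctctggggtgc
Tiparp: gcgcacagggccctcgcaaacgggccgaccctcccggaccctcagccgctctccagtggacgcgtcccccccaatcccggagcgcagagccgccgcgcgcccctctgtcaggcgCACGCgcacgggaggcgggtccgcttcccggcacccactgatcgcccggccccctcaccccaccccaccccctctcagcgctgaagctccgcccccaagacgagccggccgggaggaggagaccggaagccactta
Cyp1a2: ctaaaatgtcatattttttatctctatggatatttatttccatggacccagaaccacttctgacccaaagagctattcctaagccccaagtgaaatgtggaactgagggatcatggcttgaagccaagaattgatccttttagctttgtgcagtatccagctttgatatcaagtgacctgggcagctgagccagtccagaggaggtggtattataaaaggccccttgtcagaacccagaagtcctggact

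The Ahrr window held 3 cores, whose first bases lie at -142, -117 and -57 from the start. The Cyp1b1 window held 2, at -81 on the opposite strand and at -20, and the Tiparp window held 1, at -136 on the opposite strand. The Arnt window (chr2:185686453-185686702, + strand) held 1, at -42, and the windows of Ahr (chr6:57998902-57999151, - strand) and Cyp1a2 held 0. The RefSeq table had an entry for 6 of the 7 members, all but Cyp1a1. Among all 33469 windows of the same length, 25.9% held the core on either strand, 8.12% held 2 or more and 2.58% held 3 or more. The share was 53.2% among windows with at least 60% G and C, and 75.2% of the Ahr window, 74.8% of the Tiparp window, 62% of the Ahrr window, 59.2% of the Cyp1b1 window and 44% of the Cyp1a2 window was G or C. These letters also lie within the core that hypoxia-inducible factors bind, and a match is a string of letters and not a measured binding site.

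Depth ran from 25646531 to 46464289 assigned reads per library. The group median was highest in cirrhosis, whose libraries held at least 38812871, though healthy replicate 6 held 41228835. Levels are CPM, read counts scaled to a common total after TMM scaling and not divided by transcript length, so levels are compared between libraries and not between genes. A gene was called at the study's own thresholds, an unadjusted p below 0.05 and a fold-change above 1.5 by limma-voom; the adjusted p-values quoted are Benjamini-Hochberg values over all genes tested. Of 11 LSEC and endothelial markers found, the summed level was 15665 to 29619 CPM in healthy, 4156 to 5182 in acute, 3221 to 4086 in fibrosis and 16796 to 21037 CPM in cirrhosis libraries. These markers were detected in all groups, at a lower summed level in acute and fibrosis. Of the 11, 9 were called lower in acute and 10 in fibrosis, and 0 higher. Of all genes, 38.3% and 35.4% were called lower there. Stab1 had means of 5089, 151 and 164 CPM in healthy, acute and fibrosis, and Stab2 3548, 150 and 181 CPM. Cdh5 changed less, with 1319, 1614 and 1047 CPM. In bulk RNA, fewer cells of a type and less RNA per cell cannot be told apart.

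The 6 members other than Cyp1b1 were all called in acute against healthy LSECs, where 74.1% of all genes tested were called. Of these, 5 rose (35.8% of all genes were called higher) and Cyp1a2 fell (38.3% were called lower). In fibrosis the same split was found, 5 higher and Cyp1a2 lower, against 71.2% of all genes called, 35.8% higher and 35.4% lower. In cirrhosis, 4 of the 6 were called, all higher (Ahr, Ahrr, Tiparp and Cyp1a1), against 54.5% of all genes called, 28.8% higher and 25.7% lower. The groups did not overlap for 5 of the 6 members in acute (60.4% of all genes), for 5 in fibrosis (59% of all genes) and for 2 in cirrhosis (27.2% of all genes). With so many genes called in the whole transcriptome, a call by itself says little about a member, and the sizes below carry the description. All 3 comparisons share the 6 healthy libraries.

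**Figure D1:**
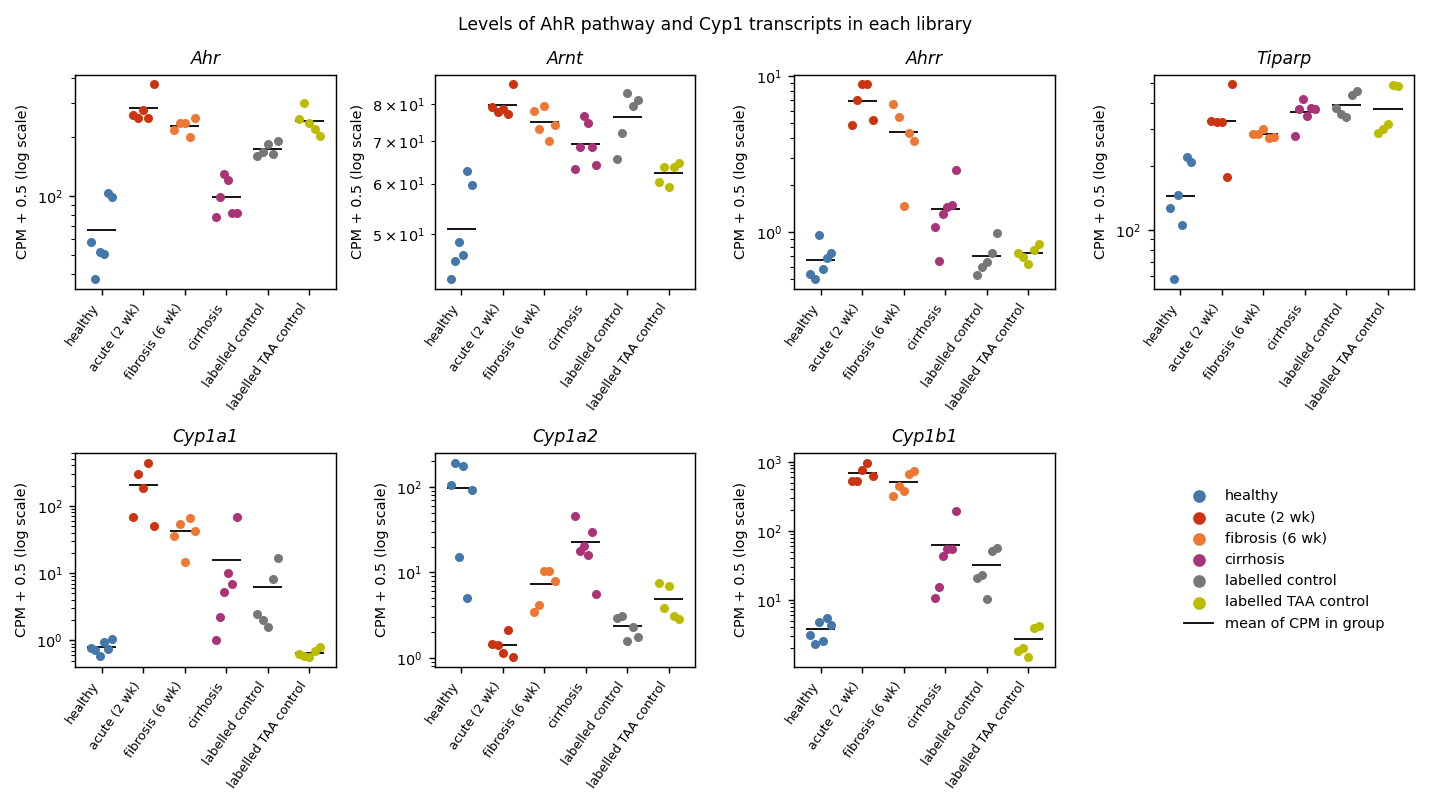
Each panel plots 1 gene, with groups on the horizontal axis and CPM + 0.5 on a logarithmic vertical axis whose range differs between panels; points are libraries and lines are group means of CPM. Cyp1a1, Cyp1b1 and Ahrr are highest in acute libraries and lower in cirrhosis than in fibrosis on average, Cyp1a2 is highest in healthy libraries, and Ahr and Arnt span a narrower range.

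The receptor itself, Ahr (ENSRNOG00000004342), stood at 57.8, 37.1, 51.2, 50.2, 103 and 98.3 CPM in the healthy libraries. It stood at 258, 249, 274, 249 and 372 CPM in acute, and at 217, 235, 236, 200 and 251 CPM in fibrosis. In cirrhosis the values were 77.9, 98.7, 129, 120, 80.8 and 81.0 CPM. All acute and fibrosis libraries were above every healthy and every cirrhosis library, whereas cirrhosis libraries overlapped with healthy replicates 5 and 6. The means were 66.3 ± 27.6 (SD, n = 6) in healthy, 280 ± 52.1 (n = 5) in acute, 228 ± 19.5 (n = 5) in fibrosis and 98.0 ± 22.2 CPM (n = 6) in cirrhosis. Ahr rose by 2.21 on the log2 scale in acute (SE 0.271, limma-voom adjusted p = 1.21e-05), or 4.63-fold, and by 1.96 in fibrosis (SE 0.257, adjusted p = 2.46e-05). The difference between fibrosis and acute was -0.20 and was not called (limma-voom adjusted p = 0.221).

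From fibrosis to cirrhosis, Ahr fell by 1.28 on the log2 scale (SE 0.139, limma-voom adjusted p = 3.84e-06) with no overlap between the libraries. Against healthy, the remaining rise of Ahr in cirrhosis was 0.63 (SE 0.251, limma-voom adjusted p = 0.0450). This call was not stable: the adjusted p was 0.0714 with edgeR and 0.0524 with DESeq2, both with an unadjusted p still below 0.05 but a fold-change under 1.5. The call was also lost without healthy replicate 2 (log2 difference 0.48), 3 (0.57) or 4 (0.56), and without cirrhosis replicate 3 (0.54) or 4 (0.57).

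Arnt (ENSRNOG00000031174), the partner that AhR needs to bind DNA, moved in the same direction over a smaller range. Its 6 healthy libraries ran from 42.1 to 62.3 CPM with a mean of 50.4 ± 8.29. The acute libraries held 78.7, 77.1, 78.1, 76.7 and 85.3 CPM and the fibrosis libraries 77.4, 72.6, 78.9, 69.6 and 73.7 CPM. All of these lay above the healthy range. Arnt rose by 0.72 in acute (SE 0.143, limma-voom adjusted p = 0.000587) and by 0.67 in fibrosis (SE 0.137, adjusted p = 0.000814). In cirrhosis the libraries ran from 62.7 to 76.0 CPM, again above every healthy library, but the difference of 0.46 (SE 0.129, limma-voom adjusted p = 0.00918) was a 1.37-fold change and missed the fold threshold. Scaled by library size alone, this Arnt difference was 0.80 and was called, under a scaling that shifted the median of all genes by 0.35 in the same comparison.

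Ahrr (ENSRNOG00000014721), the receptor's repressor and itself a target, was close to the limit of detection in healthy LSECs, with 1, 0, 11, 2, 5 and 9 reads in the 6 libraries. In acute libraries the counts were 159, 235, 303, 357 and 146, and in fibrosis 217, 158, 29, 132 and 113. Cirrhosis libraries held 22, 7, 31, 42, 43 and 80 reads. Every acute and fibrosis library was above every healthy library, and fibrosis replicate 15 was far below the other fibrosis libraries. As levels, the means were 0.165 ± 0.170 CPM in healthy, 6.46 ± 1.92 in acute, 3.85 ± 1.94 in fibrosis and 0.907 ± 0.609 CPM in cirrhosis. Ahrr rose by 5.83 on the log2 scale in acute (SE 0.607, limma-voom adjusted p = 2.95e-06), by 4.96 in fibrosis (SE 0.783, adjusted p = 0.000110) and by 2.63 in cirrhosis (SE 0.813, adjusted p = 0.0145). The size of these folds depends on the few reads in the healthy libraries. Ahrr fell from fibrosis to cirrhosis by 2.29 (SE 0.626, limma-voom adjusted p = 0.00504), while fibrosis and acute differed by -0.82 (adjusted p = 0.184, not called); without fibrosis replicate 12 that difference was -1.06 and was called.

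Tiparp (ENSRNOG00000011238), an ADP-ribosyltransferase that modifies AhR, was higher than healthy in all 3 disease groups to a similar degree. Healthy libraries held 126, 57.9, 146, 104, 221 and 210 CPM. Acute libraries held 327, 324, 323, 179 and 491 CPM, fibrosis libraries 273 to 301 CPM and cirrhosis libraries 280, 373, 419, 348, 378 and 375 CPM. Acute replicate 4 lay inside the healthy range, and all fibrosis and cirrhosis libraries lay above it. Tiparp rose by 1.31 in acute (SE 0.353, limma-voom adjusted p = 0.00462), by 1.20 in fibrosis (SE 0.302, adjusted p = 0.00326) and by 1.45 in cirrhosis (SE 0.280, adjusted p = 0.00102). Cirrhosis exceeded fibrosis by 0.31 (limma-voom adjusted p = 0.00998), which is under 1.5-fold and was not called.

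Cyp1a1 (ENSRNOG00000019500), the classical readout of receptor activity, had the largest fitted fold of the 6 members in acute. Healthy libraries held 0.277, 0.214, 0.0841, 0.448, 0.250 and 0.540 CPM, from 2 to 21.4 reads. Acute libraries held 67.4, 295, 182, 439 and 49.5 CPM, and fibrosis libraries 35.5, 52.4, 13.9, 66.1 and 41.3 CPM. The acute values spread widely, and fibrosis overlapped only with the lowest of them. In cirrhosis Cyp1a1 ran from 0.524 CPM in replicate 1, inside the healthy range, through 1.71, 4.67, 9.53 and 6.43 to 66.8 CPM in replicate 6, next to the 67.4 CPM of acute replicate 1.

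Cyp1a1 rose by 9.09 on the log2 scale in acute (SE 0.971, limma-voom adjusted p = 3.75e-06), by 7.11 in fibrosis (SE 0.655, adjusted p = 1.34e-06) and by 4.15 in cirrhosis (SE 1.40, adjusted p = 0.0216). The cirrhosis difference was 4.77 without cirrhosis replicate 1 and 3.43 without cirrhosis replicate 6, called in both cases, and it was 5.59 with edgeR and 5.66 with DESeq2. From acute to fibrosis Cyp1a1 fell by 1.92 (SE 0.647, limma-voom adjusted p = 0.0586, unadjusted p = 0.0131). From fibrosis to cirrhosis it fell by 2.92 (SE 0.845, limma-voom adjusted p = 0.00715), but this call was lost with edgeR (-1.49, adjusted p = 0.166) and with DESeq2 (-1.46, adjusted p = 0.167). Without cirrhosis replicate 1 the difference was -2.32, and without replicate 6 it was -3.63. From acute to cirrhosis it fell by 4.90 (SE 0.968, limma-voom adjusted p = 0.000453); this value was -4.28 without cirrhosis replicate 1 and -5.61 without replicate 6.

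Reads were divided between Cyp1a1 and its close relative Cyp1a2 by the counting step. The Cyp1a1 count was not a whole number in 25 of 32 libraries, while the sum of both genes was whole, within 0.02 reads, in 32 of 32. The sum does not depend on that division. It was 4.75 to 192 CPM in healthy and 50.0 to 440 CPM in acute libraries, where Cyp1a2 made up most of the first and Cyp1a1 most of the second.

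Cyp1a2 (ENSRNOG00000016173), which clears caffeine and many drugs in the liver, went the other way. It stood at 104, 192, 14.5, 175, 4.50 and 92.7 CPM in healthy libraries and at 0.935, 0.911, 0.635, 1.61 and 0.515 CPM in acute libraries. Fibrosis libraries held 2.96, 3.69, 9.77, 9.95 and 7.50 CPM, and cirrhosis libraries 44.9, 17.3, 19.6, 15.4, 28.9 and 5.10 CPM. Healthy replicates 3 and 5 were far below the other 4, and acute libraries were all below every healthy one. Cyp1a2 fell by 5.85 on the log2 scale in acute (SE 1.43, limma-voom adjusted p = 0.00242) and by 3.04 in fibrosis (SE 1.07, adjusted p = 0.0211); without healthy replicate 5 the differences were -6.57 and -3.76. It rose by 2.85 from acute to fibrosis (SE 0.502, limma-voom adjusted p = 0.00627), a call that was lost in a single fit over all CCl4 groups (2.78, adjusted p = 0.263). It rose by 1.55 from fibrosis to cirrhosis (SE 0.591, limma-voom adjusted p = 0.0301); that call was lost in the single fit and without fibrosis replicate 12 (1.28) or 13 (1.37).

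Against healthy, the cirrhosis difference of Cyp1a2 was -1.55 (95% confidence interval -3.43 to 0.33, limma-voom adjusted p = 0.144) and was not called. It was called with edgeR (-2.15, adjusted p = 0.0246), with DESeq2 (-2.16, adjusted p = 0.00293), in the single fit and without healthy replicate 5 (-2.26). Whether Cyp1a2 was lower in cirrhotic than in healthy LSECs therefore depended on the method and on 1 library.

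In the CCl4 experiment, hepatocyte markers moved with Cyp1a2. The summed level of 10 markers, all found, was 758 to 18775 CPM in healthy, 88.4 to 797 in acute, 1027 to 4375 in fibrosis and 1679 to 11527 CPM in cirrhosis. Healthy replicates 5 and 3 were the lowest in the marker sum as they were in Cyp1a2, and cirrhosis replicate 6 was lowest and replicate 1 highest in both. Of the 10 markers, 10 were called lower in acute, 7 in fibrosis and 4 in cirrhosis, and none was called higher. Of all genes, 38.3%, 35.4% and 25.7% were called lower in the same order. Per 1000 CPM of hepatocyte markers, Cyp1a2 had a median of 8.06 CPM in healthy (5.34 to 11.3), 3.16 in acute (1.97 to 7.19), 2.88 in fibrosis (2.27 to 3.34) and 3.87 CPM in cirrhosis (2.13 to 5.26). On this ratio, which was added after the values were seen, healthy libraries lay above every fibrosis and every cirrhosis library, and overlapped with 1 acute library. The part of hepatocyte RNA in the Cyp1a2 result was not tested.

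**Figure D2:**
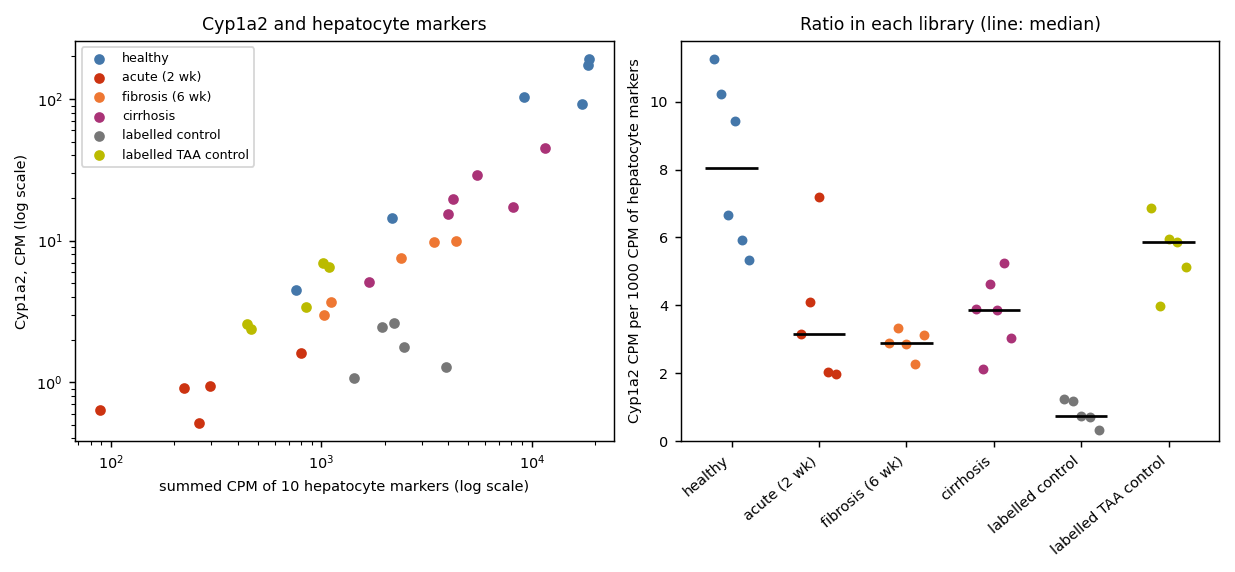
The left panel plots Cyp1a2 (CPM, logarithmic) against the summed CPM of 10 hepatocyte markers (logarithmic), and the right panel the ratio of Cyp1a2 to 1000 CPM of those markers on a linear axis from 0, with the median of each group as a line; points are libraries. In the CCl4 experiment, healthy replicates 3 and 5 are lowest of the healthy libraries on both axes of the left panel, whereas the libraries labelled control lie to the right of, and mostly below, those labelled TAA control; the ratio is 0.326 to 1.26 in the libraries labelled control and 5.34 to 11.3 in the healthy libraries.

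Cyp1b1 (ENSRNOG00000040287), the extrahepatic member of the family, was listed at 2.63, 1.79, 4.29, 2.04, 5.07 and 3.78 CPM in healthy libraries. The values were 530, 520, 748, 971 and 614 CPM in acute and 315, 442, 375, 653 and 738 CPM in fibrosis. In cirrhosis they were 10.1, 15, 42.3, 54.0, 54.9 and 193 CPM. The gene was selected on this rise, and no test is attached: acute, fibrosis and cirrhosis libraries all lay above the healthy ones, and every cirrhosis library lay below every fibrosis library. The group means were 3.27 ± 1.32 CPM in healthy (n = 6), 677 ± 188 in acute (n = 5), 505 ± 183 in fibrosis (n = 5) and 61.5 ± 67.1 CPM in cirrhosis (n = 6). The fitted log2 differences from healthy were 7.79, 7.37 and 3.67 in that order.

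**Figure D3:**
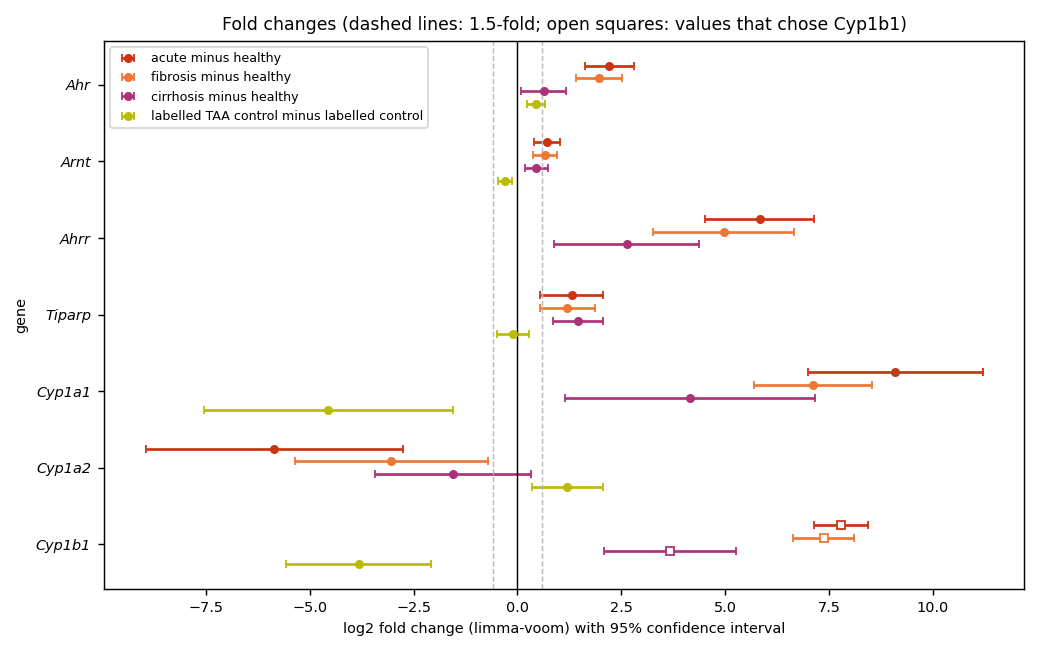
Points give the log2 fold change of each gene by limma-voom and bars its 95% confidence interval, for acute, fibrosis and cirrhosis minus healthy and for labelled TAA control minus labelled control; dashed lines mark 1.5-fold, and open squares mark the Cyp1b1 values that led to its choice. The bars on those Cyp1b1 values are a description and no test, because the gene was chosen on this rise. Ahrr has no point in the TAA experiment because too few reads were counted. The interval of Cyp1a2 in cirrhosis, from -3.43 to 0.33, crosses 0.

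Between disease stages, 2 of the 6 members were called from acute to fibrosis (Cyp1a1 lower, Cyp1a2 higher), where 15.7% of all genes were called. From fibrosis to cirrhosis 4 were called (Ahr, Ahrr and Cyp1a1 lower, Cyp1a2 higher) beside 64.2% of all genes. The same 4 were called in the same directions from acute to cirrhosis, beside 69.7% of all genes. In that last comparison Ahr fell by 1.55 (SE 0.160, limma-voom adjusted p = 1.65e-06), Ahrr fell by 3.17 (SE 0.461, adjusted p = 3.54e-05) and Cyp1a2 rose by 4.32 (SE 0.837, adjusted p = 0.000387). Arnt and Tiparp were not called in any of the 3 comparisons between stages.

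Among the 6 cirrhosis libraries, the highest level over the lowest was 127-fold for Cyp1a1, 19.1-fold for Cyp1b1, 13.4-fold for Ahrr and 8.79-fold for Cyp1a2, against 1.66-fold for Ahr and 1.5-fold for Tiparp. Replicate 6 held the highest Cyp1b1, Cyp1a1 and Ahrr, and replicates 1 and 2 the lowest, whereas Ahr in replicate 6 was 81.0 CPM, within the range of the others. Over the 6 libraries on log2(CPM + 0.5), Cyp1b1 and Cyp1a1 went together with r = 0.98 and rho = 0.94, and r was 0.95 without replicates 1 and 6. Cyp1b1 and Ahrr had r = 0.88 and rho = 0.94, and r = 0.998 without replicates 1 and 6. Cyp1a1 and Ahrr had r = 0.85 and rho = 0.89, and r = 0.94 without those 2 libraries.

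The 3 pairs with Tiparp had r of 0.54 (Cyp1b1), 0.49 (Cyp1a1) and 0.18 (Ahrr). Without replicates 1 and 6, r was -0.04 for Cyp1b1 and -0.29 for Cyp1a1. For Ahrr it was 0.72 without replicates 2 and 6. Values of r with libraries left out, here and above, rest on few points. All 6 pairs were chosen after the values were seen and share their libraries, and Cyp1b1 was chosen on these samples, so the coefficients are a description and no test is attached. Hepatocyte markers ran the other way at the ends of this range, with 11527 CPM in replicate 1 and 1679 CPM in replicate 6, and LSEC markers stood at 19638 and 19210 CPM in the same libraries. Their part in the relation was not tested.

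**Figure D4:**
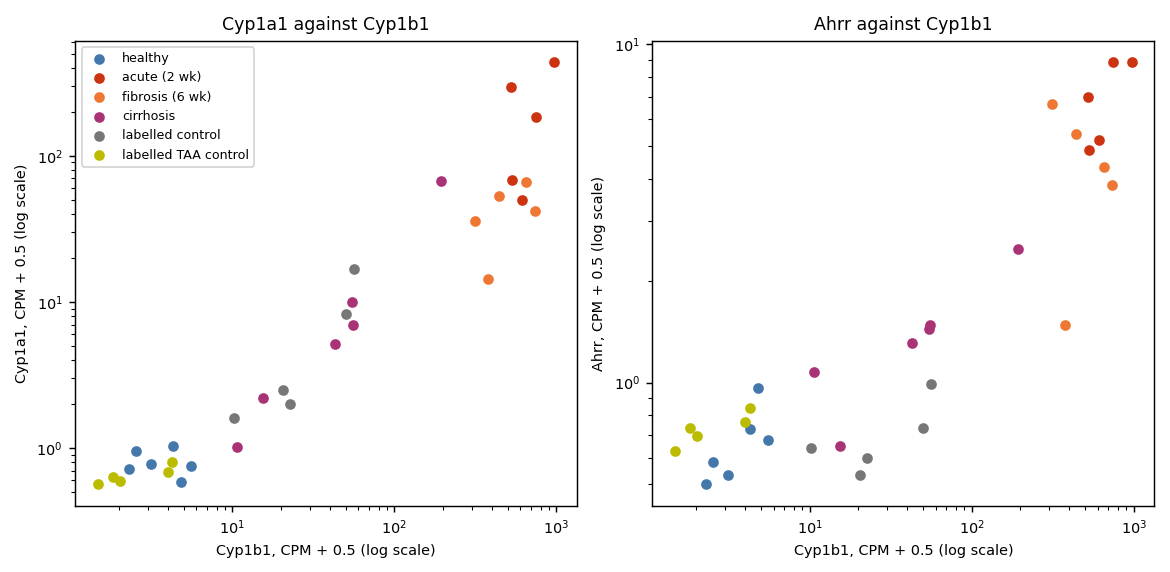
Each point is a library, with Cyp1b1 on the horizontal axis and Cyp1a1 (left) or Ahrr (right) on the vertical axis, all as CPM + 0.5 on logarithmic scales. Cirrhosis libraries spread from 10.1 to 193 CPM of Cyp1b1 and from 0.524 to 66.8 CPM of Cyp1a1, and libraries labelled control lie within the cirrhosis range of Cyp1a1.

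In the TAA experiment, where Cyp1b1 was not chosen and could be tested, it held 20, 22.3, 9.73, 49.9 and 55.7 CPM in the libraries labelled control and 1.33, 1.53, 0.982, 3.50 and 3.76 CPM in those labelled TAA control. The groups did not overlap. The means were 31.5 ± 20.1 and 2.22 ± 1.31 CPM (n = 5 each), and the log2 difference was -3.83 (SE 0.793, limma-voom adjusted p = 0.00246). Cyp1a1 differed in the same direction, with 2.00, 1.49, 1.11, 7.73 and 16.3 CPM against 0.133, 0.0975, 0.0634, 0.188 and 0.304 CPM. Its log2 difference was -4.55 (SE 1.36, limma-voom adjusted p = 0.0171), and -3.93 without labelled control replicate 5. In both genes, replicates 4 and 5 were the highest of the libraries labelled control.

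Of the 6 members tested there, 3 were called, Cyp1b1, Cyp1a1 and Cyp1a2, beside 29.4% of all genes, and the groups did not overlap for 4 of 6 members, beside 35.4% of all genes. Cyp1a2 was higher in libraries labelled TAA control, at 6.96, 3.38, 6.47, 2.59 and 2.36 CPM against 2.44, 2.62, 1.08, 1.77 and 1.27 CPM, a log2 difference of 1.20 (SE 0.389, limma-voom adjusted p = 0.0248) with overlapping libraries. Here the summed level of hepatocyte markers did not run with Cyp1a2: it was 441 to 1086 CPM in the libraries labelled TAA control and 1431 to 3902 CPM in those labelled control. Of the 10 markers, 6 were called lower and 2 higher in libraries labelled TAA control. Alb, the largest part of the sum, had means of 480 CPM in labelled TAA control and 1880 CPM in labelled control. In the same order, Cyp2c11 had 18.0 and 2.23 CPM and Apoa2 6.65 and 1.64 CPM, the direction of Cyp1a2. Cyp1a2 per 1000 CPM of these markers was 3.99 to 6.86 against 0.326 to 1.26, with no overlap.

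Ahr held 246, 299, 236, 219 and 201 CPM in libraries labelled TAA control and 160, 168, 184, 163 and 191 CPM in those labelled control. Its difference of 0.44 (SE 0.0979, limma-voom adjusted p = 0.00345) was without overlap but under 1.5-fold. Arnt differed by -0.30 (SE 0.0729, limma-voom adjusted p = 0.00564), also without overlap and under 1.5-fold. Ahr thus differed in the opposite direction to Cyp1a1 and Cyp1b1 in these libraries, and in the same direction as Cyp1a2. Tiparp did not pass the test, at -0.11 (95% confidence interval -0.49 to 0.27, limma-voom adjusted p = 0.619). Ahrr had at most 17 reads in a library and failed the low-count filter; an exact two-sided permutation test on log2(CPM + 0.5) gave a difference of 0.094 (p = 0.603, smallest possible 0.00794).

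Other cell types also differed between these groups. Stellate cell and fibroblast markers summed to 2006 to 4959 CPM in libraries labelled control and 331 to 524 CPM in those labelled TAA control. Of the 11 markers, 8 were called, beside 29.4% of all genes. LSEC markers were at 21443 to 26283 and 24728 to 33145 CPM. In the CCl4 experiment the stellate sum was 305 to 783 CPM in healthy, 1336 to 2162 in acute, 1290 to 1752 in fibrosis and 649 to 2054 CPM in cirrhosis, and the Kupffer cell and macrophage sum was 512 to 3097, 82.7 to 209, 32.9 to 191 and 957 to 2827 CPM. The rise of the stellate sum in acute and fibrosis was in Reln, with means of 171 CPM in healthy, 1696 in acute and 1387 CPM in fibrosis. Of 10 stellate markers tested, 1 was called higher and 7 lower in acute, and 4 and 4 in fibrosis, with medians of -2.72 and 0.06. In cirrhosis 8 of 11 were called higher and 0 lower (median 2.08). Of all genes, 35.8% were called higher and 38.3% lower in acute, 35.8% and 35.4% in fibrosis, and 28.8% and 25.7% in cirrhosis. The collagen gene Col3a1 had means of 228, 5.27, 22.9 and 929 CPM in healthy, acute, fibrosis and cirrhosis, and Pdgfrb, a receptor of stellate cells, 7.39, 1.07, 8.11 and 42.5 CPM. Stellate cells can express Cyp1b1, and the part of these cells in its level was not tested.

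Ordered by mean, Ahr ran from healthy through cirrhosis, labelled control, fibrosis and labelled TAA control to acute, and only the steps from cirrhosis to labelled control and from there to fibrosis were free of overlap. Cyp1b1 ran from labelled TAA control through healthy, labelled control, cirrhosis and fibrosis to acute; labelled control lay above healthy and fibrosis above cirrhosis without overlap. Cyp1a1 had the same order, with a gap only between healthy and labelled control. Tiparp was separated only between healthy and fibrosis, and for Arnt, Ahrr and Cyp1a2 all neighbours in the order overlapped. These orders span separate experiments and are descriptions.

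Among the 5 genes nearest to Cyp1b1 in pattern over the 22 CCl4 libraries, by the root mean square difference of centred log2(CPM + 0.5) among 8588 genes, were Cyp1a1 (0.95), Tll1 (1.02) and Map1b (1.04). Map1b, which encodes a microtubule-associated protein, had means of 22.5, 1258, 1546 and 109 CPM in healthy, acute, fibrosis and cirrhosis. Nearest to Ahr were Papd5 (0.16), Naa30 (0.18), Mmgt1 (0.19), Cpsf6 (0.20) and Rnf2 (0.20). Papd5, a poly(A) polymerase, had means of 30.3, 119, 107 and 47.6 CPM in the same order.

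Around the members, the cytosolic complex that holds AhR was mixed. Against healthy, 35.8%, 35.8% and 28.8% of all genes were called higher in acute, fibrosis and cirrhosis, and 38.3%, 35.4% and 25.7% lower. Of 5 genes of the complex tested, 2 were called higher and 1 lower in each of these 3 groups. The median log2 difference of these genes was -0.17, 0.26 and 0.61 against -0.09, -0.03 and 0.07 over all genes. Ptges3, the co-chaperone p23, rose by 2.12, 2.05 and 0.61 (limma-voom adjusted p = 1.70e-06, 2.25e-06 and 0.0213).

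The other bHLH-PAS factors, several of which compete for Arnt, were also mixed, with 2 higher and 3 lower of 6 tested in acute, 3 and 2 of 6 in fibrosis, and 2 and 1 of 7 in cirrhosis. Beside this list and the coregulators below, 35.8% of all genes were called higher and 38.3% lower in acute. These shares were 35.8% and 35.4% in fibrosis and 28.8% and 25.7% in cirrhosis. Hif1a, the hypoxia-inducible factor that pairs with Arnt, rose by 3.23, 3.13 and 1.5 (limma-voom adjusted p = 1.42e-06, 1.87e-06 and 0.00104). The clock factor Npas2 fell by 4.59 and 2.19 in acute and fibrosis (adjusted p = 0.000534 and 0.0135) and stood at 0.28 in cirrhosis (adjusted p = 0.621). Of 6 coregulators, 3 were called higher and 1 lower in acute, 4 and 1 in fibrosis and 4 and 0 in cirrhosis. Nrip1 rose by 2.10, 2.03 and 1.08 and the acetyltransferase Crebbp by 1.37, 1.44 and 0.87 (limma-voom adjusted p at most 0.0130).

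Other genes of the AhR battery did not move as a block. In acute, 3 of 8 tested were called higher and 3 lower, in fibrosis 4 and 2 of 9, and in cirrhosis 3 and 0 of 9, with medians of -0.31, -0.08 and 0.24. Of all genes, 35.8% were called higher and 38.3% lower in acute, 35.8% and 35.4% in fibrosis, and 28.8% and 25.7% in cirrhosis. Serpinb2, plasminogen activator inhibitor 2, rose by 8.25, 9.81 and 2.44 (limma-voom adjusted p = 1.47e-05, 3.22e-08 and 0.00984). Gsta2, a glutathione transferase abundant in hepatocytes, fell by 4.90 and 1.76 in acute and fibrosis (adjusted p = 0.000367 and 0.0193), with -1.17 in cirrhosis (adjusted p = 0.110). Nqo1, a quinone reductase named here after its values were seen, rose by 3.77 and 3.34 (limma-voom adjusted p = 1.81e-07 and 2.10e-07). It stood at 0.24 in cirrhosis (adjusted p = 0.535). Xdh, also named after its values were seen, went the other way, with means of 872, 73.0 and 79.1 CPM in healthy, acute and fibrosis. In the TAA experiment Nqo1 differed by -1.31 (limma-voom adjusted p = 0.00714), the same sign as Cyp1a1 there. Of 7 battery genes tested in that experiment, 2 were called higher and 2 lower in libraries labelled TAA control, beside 29.4% of all genes called.

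The kynurenine pathway, whose enzymes make and remove tryptophan-derived AhR ligands, was called lower in 8 of 8 genes in acute and 8 of 8 in fibrosis, and in 3 of 8 in cirrhosis, where 38.3%, 35.4% and 25.7% of all genes were called lower. Its median was -5.90, -4.55 and -1.02. The list held 9 genes, and Ido1, with few reads, was not tested in these comparisons. Ido1 had means of 0.0210, 0.102, 0.646 and 0.0404 CPM in healthy, acute, fibrosis and cirrhosis. Haao fell by 8.37, 5.15 and 2.01 (limma-voom adjusted p = 0.000194, 0.000643 and 0.0180), and Tdo2 by 7.96 and 5.21 (adjusted p = 0.000183 and 0.00111), with -0.63 in cirrhosis (adjusted p = 0.391). Both are abundant in hepatocytes, whose 10 markers had medians of -6.22, -2.76 and -1.20, and the part of hepatocyte RNA was not tested.

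Among 4 redox partners of cytochromes P450, 3 were called lower in acute, 3 in fibrosis and 2 in cirrhosis, and none higher. Of all genes, 38.3%, 35.4% and 25.7% were called lower and 35.8%, 35.8% and 28.8% higher in the same order. Cyb5r3 fell by 2.67, 2.29 and 0.94 (limma-voom adjusted p at most 0.00777), and Cyb5a by 1.63 and 1.64, with -0.28 in cirrhosis (adjusted p = 0.528). Phenobarbital acts through CAR and PXR. Of 5 tested genes of that group, 4 were called lower in acute, 2 in fibrosis and 2 in cirrhosis, and none higher. These counts stand beside the same shares of all genes. Nr1i2, which encodes PXR, fell by 7.06 and 5.22 in acute and fibrosis (limma-voom adjusted p = 0.000261 and 0.00117) with -1.12 in cirrhosis (adjusted p = 0.140). Cyp3a2 fell by 3.38 in acute (adjusted p = 0.00650) and stood at -0.35 and 0.09 in fibrosis and cirrhosis (adjusted p = 0.716 and 0.921). Nr1i2 ran from 1.89 to 29.9 CPM among healthy libraries. Hepatocyte markers had median log2 differences of -6.22, -2.76 and -1.20 in acute, fibrosis and cirrhosis. The part of hepatocyte RNA in the levels of both lists was not tested, nor was a response to phenobarbital.

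**Figure D5:**
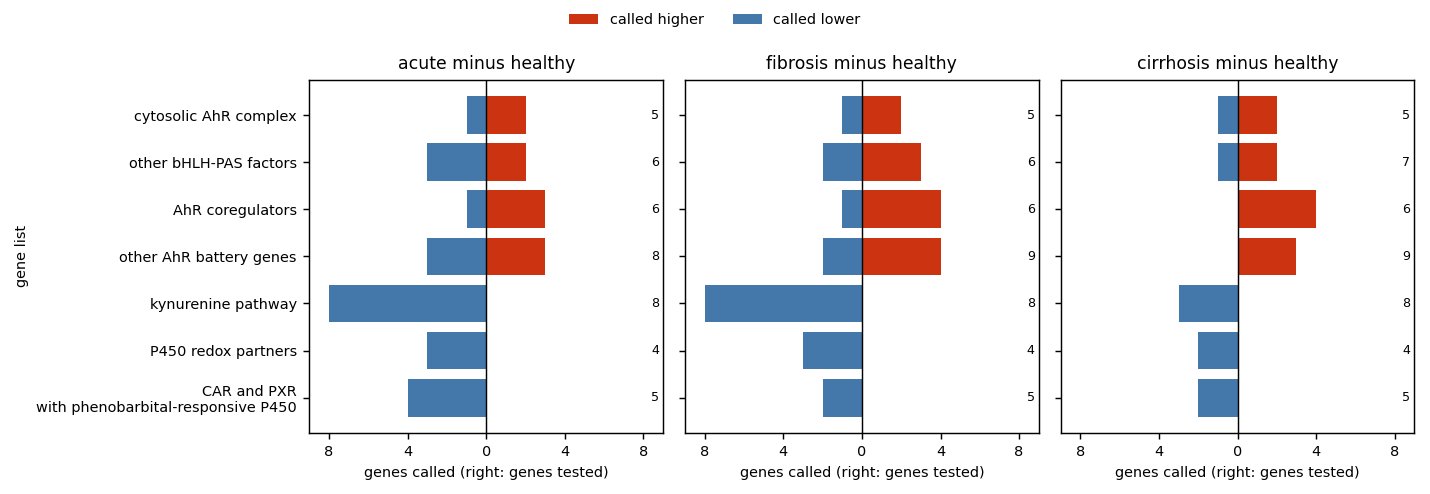
Bars count the genes of each list called higher (to the right of 0) or lower (to the left) than healthy in acute, fibrosis and cirrhosis, and the number at the right edge is the number of genes tested. The kynurenine bars reach 8 of 8 lower in acute and fibrosis and 3 of 8 in cirrhosis, while the AhR battery has bars on both sides in acute and fibrosis.

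In the TAA experiment, 0 of 6 coregulators and 0 of 4 redox partners were called by limma-voom, although 2 coregulators (Ncoa3 and Nrip1) and 1 redox partner (Cyb5a) had an unadjusted p below 0.05. In the other lists, 1 of 5 genes of the cytosolic complex, 4 of 6 bHLH-PAS factors, 4 of 7 battery genes, 1 of 7 kynurenine genes and 1 of 4 CAR and PXR genes were called, beside 29.4% of all genes in either direction. Of the bHLH-PAS factors called, 2 were higher and 2 lower in libraries labelled TAA control. Hif1a and Npas2 were the lower ones (limma-voom adjusted p = 0.000475 and 0.000764). Tdo2 and Nr1i2 were also lower in libraries labelled TAA control (limma-voom adjusted p = 0.0115 and 0.0136).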

How the data were processed

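Poly(A) RNA of LSECs was sequenced, 1 library per sample. The authors trimmed the reads (FastQC, Trim Galore), aligned them with STAR to Rnor_6.0 and deposited RSEM expected counts per gene, which divide reads shared by similar genes, such as Cyp1a1 and Cyp1a2, between them. The tool versions are not given in the sources used here.

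Here the expected counts were rounded to whole numbers. For each of 7 comparisons, fitted on its 2 groups only, genes were kept by filterByExpr with a minimum count of 10, scaled by TMM (edgeR 4.0.16) and tested with limma-voom (limma 3.58.1, R 4.3.3) with no covariate, and p-values were Benjamini-Hochberg adjusted over all genes tested. A gene was called at an unadjusted p below 0.05 and a fold-change above 1.5, the study's thresholds. Levels are CPM with TMM factors over all 32 libraries. Of the 7 members, 6 passed the filter in every comparison and Ahrr failed it in the TAA experiment. Motifs were searched on both strands of the 250-base RefSeq windows (GRCr8), and no genome coordinates were converted. The code was tested on simulated counts. Figures were drawn with matplotlib 3.10.9.

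The members, the gene lists and the tests were chosen with earlier results of these data known. Named were the 7 members, in each list the 2 genes with the largest change among those called in acute against healthy, and the 5 genes nearest in pattern to Cyp1b1 and to Ahr; some genes that this rule names are not reported here. Not found under their symbols in the files were Ugt1a6, Cyp2b1, Pecam1 and Col1a2. Alternatives were edgeR's quasi-likelihood test, DESeq2 1.42.0, library-size and median-ratio scaling, no low-count filter or a CPM of at least 1, adjusted p, no fold threshold, a single fit over the 4 CCl4 groups, a replicate block and leaving out each library. Nothing in the labels says whether libraries are from separate animals beyond their titles. The paper's captions describe the samples of each model and disease stage as independent LSEC isolations. The p-values measure the spread between these libraries. The labels name no batch. In the group labelled TAA control, the numbers in the descriptions of the last 4 libraries are 1 lower than those in the titles, and the titles were used.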

Additional observations from a re-analysis of the deposited data

Results flagged for a closer look

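Over 42 groups of libraries (7 genes in 6 groups), 2 held a library at the end of its group with a gap to the next that passed Dixon's 95% limit, and chance gives about 1 in 20. Both are acute replicate 8, which was highest in Ahr at 8.54 log2 CPM (the next acute library at 8.10 and the lowest at 7.96) and highest in Arnt at 6.42 log2 CPM (next 6.31, lowest 6.27). Without that library Ahr and Arnt were still called higher in acute than in healthy LSECs.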

How the results depend on the processing

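Of 850 recomputed differences of single members, 816 kept their direction and their side of the thresholds, 15 lost a call, 12 gained one and 7 changed sign. All 6 members were called in acute and in fibrosis under every alternative run. In cirrhosis against healthy, the 4 calls became 2 with a CPM of at least 1, a filter that removed Ahrr and Cyp1a1; from acute to fibrosis the 2 calls became 1 by adjusted p and 1 in the single CCl4 fit; in the TAA experiment the 3 calls became 5 with no fold threshold. The differences that changed sign were all small and not called: Arnt from acute to fibrosis was 0.020 with a CPM of at least 1 and ran from -0.0272 to 0.0207 when 1 library was left out, Tiparp ran from -0.26 to 0.10 in that comparison and from -0.0387 to 0.32 from acute to cirrhosis. Scaled by library size alone, mean levels moved by more than 1 SD for Ahr in fibrosis (253 CPM), Arnt in healthy (40.4), acute (86.4) and fibrosis (82.6) and Tiparp in fibrosis (315), and the median of all genes against healthy shifted by 0.41, 0.40 and 0.35 in acute, fibrosis and cirrhosis. The share of calls that were higher went from 50.3% to 60.7% in fibrosis and from 52.8% to 71.2% in cirrhosis under that scaling. Over all genes, calls from acute to fibrosis were 2189, against 4968 without a fold threshold and 3358 without the low-count filter; in the TAA experiment 4228 became 8142 without a fold threshold.

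Replicate numbers shared by the CCl4 groups showed little pairing of the libraries. Correlations of same-numbered libraries' deviations were 0.04 to 0.173 for acute and healthy. They were -0.22 to 0.25 for cirrhosis and healthy and -0.0836 to 0.0742 for cirrhosis and acute. Of 4 shared numbers in acute and healthy, 3 acute and 2 healthy libraries correlated best with their own number. This held for 1 cirrhosis and 0 healthy libraries of 6, and for 0 cirrhosis libraries and 1 acute library of 4. With the replicate block, 6, 3 and 4 members were called in these comparisons, against 6, 4 and 4 without it; Ahr in cirrhosis against healthy stayed at 0.63 and lost its call (limma-voom adjusted p = 0.0866).

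Libraries 14 and 15 of the group labelled TAA control differed by less than any other pair of a group (chi-square per degree of freedom 3.05, next lowest pair 25.2), though by more than sampling noise. Summed to 1 library, an alternative chosen after seeing the data, they left 3 members called. Depth limits Ahrr most, with 0 to 11 reads in healthy libraries. The cause of the calls lost was not tested.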
